A study of Canis lupus with 24 samples.

Results

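The receptors for fibroblast growth factors (FGFs) and the genes that brake and report the ERK pathway downstream of them were followed as a set of 10 genes. They are the receptors FGFR1, FGFR2, FGFR3 and FGFR4, the inhibitors SPRY2, SPRY4 and SPRED2, the ERK phosphatase DUSP6, and the ETS transcription factors ETV4 and ETV5. They were chosen by name, with earlier results of these data known, and all 10 were among the 16295 genes measured, each on exactly 1 array row. The cells were K9TCC, derived from a transitional cell carcinoma of a dog's bladder. Their RNA was read on 24 arrays (Affymetrix Canine Gene 1.1 ST) that form 8 groups of 3. Spheres had been kept for at least 5 passages in ultralow attachment plates, in serum-free N2 medium with 10 ng/mL bFGF and 10 ng/mL EGF, so their medium carried an FGF receptor ligand. More EGF and bFGF went into the sphere medium on alternate days, at 100 µg/mL each as the labels give it. Adherent cells grew on plastic in DMEM-F-12 with 10% fetal bovine serum. Each culture form was given 50 µM mavacoxib, a COX-2 inhibitor, or 0 µM (vehicle, DMSO) over 24 h. Other cultures of each form were transfected over 48 h, using Lipofectamine RNAiMAX, with siRNA against COX-2 or with negative siRNA. For the transfections, the labels describe both culture forms as plated the day before in anchorage-dependent conditions. The study's design text uses that term for sphere growth too, against the ultralow attachment plates of the growth protocol, so whether transfected spheres were attached is not clear. All 8 groups are the same single cell line. Spheres and adherent cells with mavacoxib or DMSO differed in attachment, base medium, serum, growth factors and the passages kept as spheres together, which cannot be told apart.

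FGFs bind receptor tyrosine kinases together with heparan sulfate, and the adaptor FRS2 then links the active receptor to RAS, RAF, MEK and ERK. ERK activity induces its own brakes: DUSP6 removes phosphate from ERK in the cytoplasm, Sprouty proteins act between receptor and RAF, and SPRED proteins hold back RAS with neurofibromin. The ETS factors ETV4 and ETV5 are induced in the same way, so that these transcripts are widely read as a record of FGF and ERK signalling, and FGFR3 is a frequent driver of human urothelial tumours.

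Values are the deposited log2 signals, and array medians lay between 4.68 and 5.02. The labels do not say whether the 3 arrays of each group are separate cultures. The p-values thus rest on the spread among arrays, which may be technical, and their number limits the precision. Markers of urothelial and epithelial cells were present, with 9 to 11 of 13 group means above 4.82, the median of all values, and KRT18, CDH1, KRT5 or UPK1B at the top. The uroplakins UPK1A, UPK2 and UPK3A, marks of mature urothelium, averaged 3.47 to 5.02 in sphere groups, against 8.80 to 11.4 in adherent groups. UPK1B, another uroplakin, went the other way, at 11.6 to 11.9 in sphere groups, against 9.16 to 10.4 in adherent groups. KRT5 was high in sphere groups alone, at 11.25 to 12.22, against 2.89 to 3.71 in adherent groups. TP63, on the same list, averaged 8.04 to 9.32 in sphere groups and 4.28 to 4.59 in adherent groups. Fibroblast markers were above 4.82 for 1 to 3 of 7 genes in sphere groups, with COL3A1 at 6.07 to 6.85, and for 0 of 7 in adherent groups, with COL3A1 at 4.04 to 4.45. Among 6 measured leukocyte markers LYZ alone was above it, at 6.60 to 9.41 in sphere groups and 4.99 to 5.95 in adherent groups, and endothelium and muscle had 0 of 7. LUM and DCN, also fibroblast markers, averaged 1.95 to 2.54 over all groups. Whether fibroblasts or leukocytes were present in this cell line was not tested, nor was their part in the results.

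PTGS2, the gene of COX-2, went against the siRNA label. It read 11.32, 11.51 and 11.59 on sphere arrays labelled COX-2 siRNA, against 10.30, 10.29 and 10.35 with negative siRNA, a difference of 1.16 ± 0.13 (limma adjusted p = 2.57e-07). In adherent cells it read 11.27, 11.50 and 11.20 with labelled COX-2 siRNA, against 11.06, 10.89 and 11.02 with negative siRNA (0.33 ± 0.13, adjusted p = 0.0888). With DMSO, PTGS2 averaged 12.11 in spheres and 9.60 in adherent cells. Spheres with negative siRNA, at 10.31, were thus the lowest sphere group. In adherent cells both siRNA groups lay above DMSO, at 10.99 with negative siRNA and 11.32 with labelled COX-2 siRNA. Whether either siRNA label is right was not tested, and the sign of every siRNA difference below rests on both labels. The arrays labelled COX-2 siRNA are therefore called labelled COX-2 siRNA throughout.

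Differences below are log2 differences ± standard error of a limma fit over all 24 arrays, and a gene rose or fell where its two-sided p was under 0.05 after Benjamini-Hochberg adjustment over the 16295 genes. The values carry no detection calls. Where the lower group's mean was under 4.82, the difference is a lower bound if that signal is background. RNA came from whole cultures, so fewer cells of a kind and less RNA per cell cannot be told apart.

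The genes of the set did not share one pattern over the 8 groups. SPRY2 split the groups by culture form: the 4 sphere means ran from 8.44 to 9.12 and the 4 adherent means from 6.23 to 6.58, with a step of 1.85 between the lowest sphere and the highest adherent group. ETV4, ETV5 and SPRED2 also split by culture form, with the adherent groups on top. ETV4 means were 6.73 to 8.11 in sphere groups and 8.59 to 9.27 in adherent groups. ETV5 means were 6.87 to 7.55 in sphere groups and 8.10 to 8.73 in adherent groups, and SPRED2 means 7.45 to 8.43 in sphere groups and 8.78 to 9.22 in adherent groups. DUSP6 had its lowest 2 means, 9.24 and 9.50, in spheres with mavacoxib and in spheres with negative siRNA, against 10.36 to 10.98 in the other 6 groups. FGFR1 was highest in spheres with labelled COX-2 siRNA (10.67), and the next 4 means in order, 10.15 down to 10.01, had overlapping arrays. FGFR3 lay between 5.21 and 5.68 in 6 groups, and was lower in transfected spheres, at 4.36 with labelled COX-2 siRNA and 3.87 with negative siRNA. FGFR2 means ran from 5.32 to 6.38 and SPRY4 means from 6.16 to 7.07, and most neighbours in their orders overlapped. FGFR4 stayed between 2.99 and 3.51, below the median of all values in every group, and no 2 neighbours in its order were separated.

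**Figure D1:**
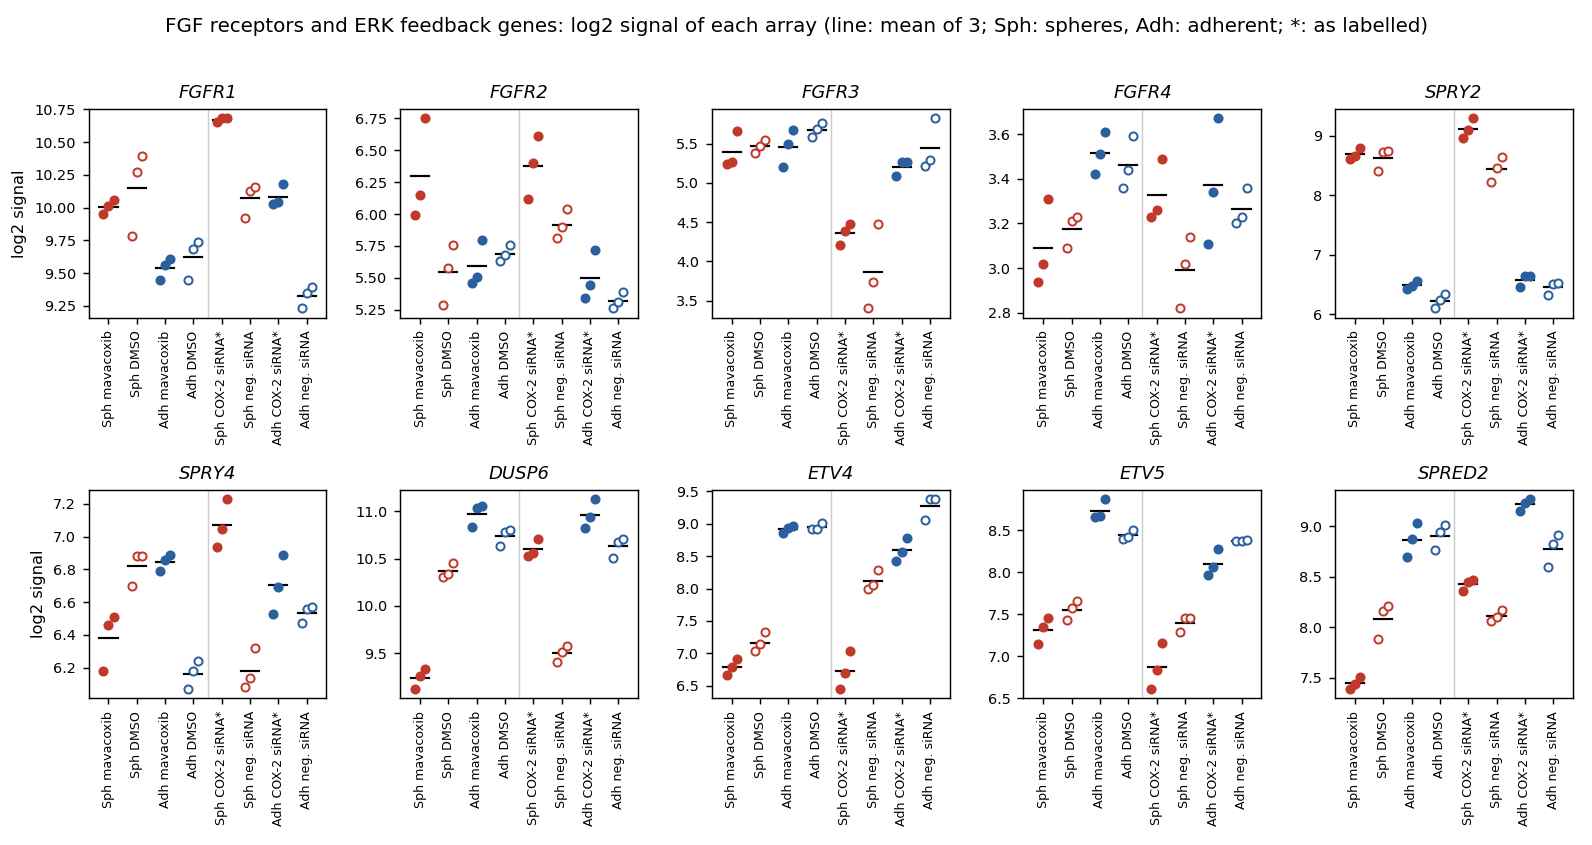
Log2 signal of the 10 genes on every array, with 1 panel per gene and its own vertical scale. Red points are spheres and blue points adherent cells, filled for mavacoxib or labelled COX-2 siRNA and open for their controls, and each line is the mean of 3 arrays; SPRY2 is higher in all 4 sphere groups and ETV4, ETV5 and SPRED2 in all 4 adherent groups.

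Mavacoxib lowered 3 ERK feedback genes in spheres and raised 1 receptor there, while in adherent cells it raised 1 feedback gene. In spheres DUSP6, SPRED2 and SPRY4 fell and FGFR2 rose, 4 of 10 genes, where 21.4% of all genes passed (11.1% higher and 10.3% lower). In adherent cells SPRY4 rose and was the 1 gene of 10 to pass, where 4.12% of all genes passed (2.61% higher and 1.50% lower). The median difference over the set was -0.19 in spheres and 0.01 in adherent cells, against -0.01 and 0.04 over all genes. Of all genes that passed in adherent cells 63.5% were higher, or 53.3% after quantile normalization.

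DUSP6 carried the largest response of the set to the drug. It read 9.33, 9.26 and 9.12 in spheres with mavacoxib, against 10.45, 10.34 and 10.30 in spheres with DMSO. All 3 treated arrays lay about a log2 unit below the controls, and DUSP6 fell by 1.13 ± 0.11, to 0.458 of the control level (adjusted p = 1.18e-07). Adherent cells had 11.06, 11.04 and 10.83 with mavacoxib, against 10.63, 10.78 and 10.80 with DMSO (0.24 ± 0.11, adjusted p = 0.260). The difference between the responses, spheres minus adherent cells, was -1.37 ± 0.15 (adjusted p = 3.59e-06).

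SPRED2, a membrane-bound inhibitor of RAS and RAF, read 7.44, 7.39 and 7.51 in spheres with mavacoxib, against 8.16, 8.21 and 7.88 with DMSO. The groups did not overlap, and SPRED2 fell by 0.64 ± 0.11 (adjusted p = 0.000277). Adherent cells had 8.70, 9.03 and 8.87 with mavacoxib, against 8.94, 9.01 and 8.77 with DMSO, and the arrays overlapped (-0.04, 95% interval -0.27 to 0.19). The responses differed by -0.60 ± 0.16 (adjusted p = 0.0179), a call that was lost without any 1 of 3 arrays among the 12 (adjusted p = 0.0507 to 0.0625).

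SPRY4, a Sprouty inhibitor of receptor tyrosine kinase signalling, passed in both culture forms with opposite signs. In spheres it read 6.51, 6.46 and 6.18 with mavacoxib, against 6.70, 6.88 and 6.88 with DMSO, and fell by 0.44 ± 0.12 (adjusted p = 0.00898). In adherent cells it read 6.89, 6.79 and 6.86 with mavacoxib, against 6.24, 6.07 and 6.18 with DMSO, and rose by 0.68 ± 0.12, or 1.61-fold (adjusted p = 0.00102). Neither pair of groups overlapped, and the responses differed by -1.12 ± 0.16 (adjusted p = 9.02e-05). The fall in spheres lost its call without mavacoxib array 3 (-0.34, adjusted p = 0.0649) and in a fit to the compared groups alone (0.0887). SPRY2, its relative, showed no call in either form, at 0.06 in spheres (95% interval -0.20 to 0.32) and 0.26 in adherent cells (adjusted p = 0.305).

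FGFR2, whose epithelial splice form binds FGFs made by stroma, read 6.15, 6.75 and 5.99 in spheres with mavacoxib, against 5.76, 5.29 and 5.58 with DMSO. Every treated array was above every control array, and FGFR2 rose by 0.75 ± 0.17 (adjusted p = 0.00250). Adherent cells had 5.80, 5.51 and 5.46 with mavacoxib, against 5.68, 5.63 and 5.76 with DMSO, with no separation (-0.10, adjusted p = 0.857). The responses differed by 0.85 ± 0.24 (adjusted p = 0.0238). That call was lost without any 1 of 5 of the 12 arrays (adjusted p = 0.0537 to 0.0743), and without sphere mavacoxib array 2 the difference was 0.63.

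The other receptors did not pass with mavacoxib. FGFR1 differed by -0.14 in spheres (95% interval -0.40 to 0.12) and by -0.08 in adherent cells (-0.35 to 0.18). Without sphere DMSO array 3, which at 9.78 lay below the other two, the FGFR1 difference in spheres was -0.32 (adjusted p = 0.0433). FGFR3 differed by -0.07 in spheres (-0.49 to 0.35) and -0.22 in adherent cells (-0.64 to 0.20), and FGFR4 by -0.09 (-0.37 to 0.19) and 0.05 (-0.23 to 0.33).

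ETV4 and ETV5 also stayed short of the threshold. ETV4 read 6.92, 6.67 and 6.79 in spheres with mavacoxib, against 7.33, 7.03 and 7.14 with DMSO. These arrays did not overlap, yet the difference of -0.37 ± 0.14 did not pass (adjusted p = 0.0590). It passed after quantile normalization (adjusted p = 0.0278), with dim genes left out (0.0307) and with trend and robust variance (0.0401). ETV5 differed by -0.24 in spheres (95% interval -0.50 to 0.03) and by 0.29 in adherent cells (0.03 to 0.56), with adjusted p of 0.214 and 0.234. ETV4 in adherent cells differed by -0.03 (-0.31 to 0.26).

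Arrays labelled COX-2 siRNA carried more changes than mavacoxib arrays did, in the set and among all genes alike. The ETS factors moved opposite to the inhibitors in spheres. In spheres FGFR1, FGFR2, SPRY2, SPRY4, DUSP6 and SPRED2 rose while ETV4 and ETV5 fell, 8 of 10 genes, where 39.0% of all genes passed (15.8% higher and 23.3% lower). In adherent cells FGFR1, DUSP6 and SPRED2 rose while ETV4 fell, 4 of 10 genes, where 15.0% of all genes passed (6.42% higher and 8.59% lower). The median difference over the set was 0.48 in spheres and 0.15 in adherent cells, against -0.04 and -0.05 over all genes. In spheres 40.4% of all passing genes were higher, or 28.7% with arrays shifted to one median.

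FGFR1 rose in both forms. It read 10.68, 10.65 and 10.68 in spheres with labelled COX-2 siRNA, against 10.16, 10.13 and 9.92 with negative siRNA (0.60 ± 0.13, adjusted p = 0.000615). In adherent cells it read 10.04, 10.03 and 10.18 with labelled COX-2 siRNA, against 9.39, 9.35 and 9.23 with negative siRNA (0.76 ± 0.13, adjusted p = 0.000249). The arrays were fully separated each time, and the difference between the responses was -0.16 (95% interval -0.53 to 0.21).

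The other receptors gave weaker calls or none. FGFR2 read 6.61, 6.12 and 6.40 in spheres with labelled COX-2 siRNA, against 5.90, 6.04 and 5.81 with negative siRNA (0.46 ± 0.17, adjusted p = 0.0353). That call was lost without any 1 of 4 of its 6 arrays (adjusted p = 0.0777 to 0.146) and with arrays shifted to one median (0.132). It was also lost in a fit to the compared groups alone (0.0553). FGFR3, with both sphere means under 4.82, read 4.39, 4.48 and 4.21 with labelled COX-2 siRNA, against 3.40, 3.74 and 4.47 with negative siRNA. Negative siRNA array 3 stood near the labelled COX-2 siRNA arrays: with it the difference was 0.49 ± 0.20 (adjusted p = 0.0593), without it 0.79 (0.00127). FGFR4 differed by 0.33 ± 0.13 there (adjusted p = 0.0542), from means of 3.33 and 2.99, and passed without labelled COX-2 siRNA array 1 (0.38, 0.0479) or negative siRNA array 1 (0.41, 0.0399). In adherent cells these receptors did not pass, with FGFR2 at 0.18 (95% interval -0.17 to 0.53), FGFR3 at -0.23 (-0.65 to 0.19) and FGFR4 at 0.11 (-0.17 to 0.39).

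Both Sprouty genes rose in spheres. SPRY2 read 9.29, 9.10 and 8.96 with labelled COX-2 siRNA, against 8.64, 8.45 and 8.22 with negative siRNA (0.68 ± 0.12, adjusted p = 0.000137). SPRY4 read 7.23, 6.94 and 7.05 with labelled COX-2 siRNA, against 6.08, 6.14 and 6.32 with negative siRNA (0.89 ± 0.12, adjusted p = 2.11e-06). No arrays overlapped for either gene. In adherent cells neither passed, with SPRY2 at 0.13 (95% interval -0.13 to 0.39) and SPRY4 at 0.17 (-0.07 to 0.41). The responses of spheres exceeded those of adherent cells by 0.72 ± 0.16 for SPRY4 (adjusted p = 0.00434) and by 0.55 ± 0.18 for SPRY2 (adjusted p = 0.0381). The SPRY2 difference was lost without any 1 of 7 of 12 arrays (adjusted p = 0.0636 to 0.0972). It was also lost with arrays shifted to one median (0.141) and in a fit to the compared groups alone (0.0810).

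DUSP6 read 10.71, 10.53 and 10.56 in spheres with labelled COX-2 siRNA, against 9.58, 9.41 and 9.51 with negative siRNA. It rose by 1.10 ± 0.11, or 2.14-fold (adjusted p = 3.97e-08), with all 3 arrays about a log2 unit above the controls. In adherent cells it read 10.94, 10.82 and 11.13 with labelled COX-2 siRNA, against 10.71, 10.68 and 10.51 with negative siRNA, and rose by 0.33 ± 0.11 (adjusted p = 0.0418). The adherent call did not survive leaving out any 1 of 5 of its 6 arrays (adjusted p = 0.0548 to 0.185). It was also lost with arrays shifted to one median (0.0566) and in a fit to the compared groups alone (0.124). The responses differed by 0.77 ± 0.15 (adjusted p = 0.00138).

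SPRED2 rose in both forms by smaller amounts. It read 8.45, 8.36 and 8.47 in spheres with labelled COX-2 siRNA, against 8.10, 8.06 and 8.17 with negative siRNA (0.32 ± 0.11, adjusted p = 0.0300). Adherent arrays gave 9.15, 9.23 and 9.27 with labelled COX-2 siRNA, against 8.91, 8.60 and 8.83 with negative siRNA (0.44 ± 0.11, adjusted p = 0.0109). The groups were separated in both forms. The sphere call was lost without any 1 of 4 arrays (adjusted p = 0.0620 to 0.0893) and with arrays shifted to one median (0.164). It was also lost in a fit to the compared groups alone (0.0762). The adherent call was lost without negative siRNA array 2 (0.35, 0.0716).

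ETV4, an ETS factor known as a transcriptional target and effector of ERK, fell in both forms. In spheres it read 7.03, 6.70 and 6.45 with labelled COX-2 siRNA, against 8.0, 8.06 and 8.28 with negative siRNA, and fell by 1.39 ± 0.14, to 0.382 of the control level (adjusted p = 5.12e-08). Adherent arrays gave 8.57, 8.43 and 8.78 with labelled COX-2 siRNA, against 9.38, 9.38 and 9.06 with negative siRNA (-0.68 ± 0.14, adjusted p = 0.00168). No arrays overlapped in either form. The responses differed by -0.71 ± 0.20 (adjusted p = 0.0168), which was lost without any 1 of 3 of 12 arrays (adjusted p = 0.0502 to 0.0615). That call was also lost in a fit to the compared groups alone (0.06265). ETV5 read 7.16, 6.61 and 6.84 in spheres with labelled COX-2 siRNA, against 7.45, 7.45 and 7.29 with negative siRNA (-0.53 ± 0.13, adjusted p = 0.00191). In adherent cells ETV5 differed by -0.27 (95% interval -0.54 to -0.01) and did not pass (adjusted p = 0.160).

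Tested directly, culture form changed the response to mavacoxib for 4 of 10 genes (FGFR2, SPRY4, DUSP6 and SPRED2), where 10.3% of all genes passed (4.49% higher and 5.82% lower). ETV5 came close, at -0.53 ± 0.18 (adjusted p = 0.0637), and passed after quantile normalization (0.0472), with dim genes left out (0.0311) and with trend and robust variance (0.0498). The other members that did not pass ran from -0.35 for ETV4 to 0.15 for FGFR3. For labelled COX-2 siRNA the count was again 4 of 10 (SPRY2, SPRY4, DUSP6 and ETV4), where 15.3% of all genes passed (6.74% higher and 8.53% lower). FGFR3 differed by 0.72 ± 0.29 (adjusted p = 0.0929), or by 1.02 without sphere negative siRNA array 3 (0.00557), and the other members that did not pass ran from -0.25 for ETV5 to 0.28 for FGFR2. SPRY4 and DUSP6 were on both lists: their sphere responses lay below the adherent ones with mavacoxib and above them with labelled COX-2 siRNA.

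**Figure D2:**
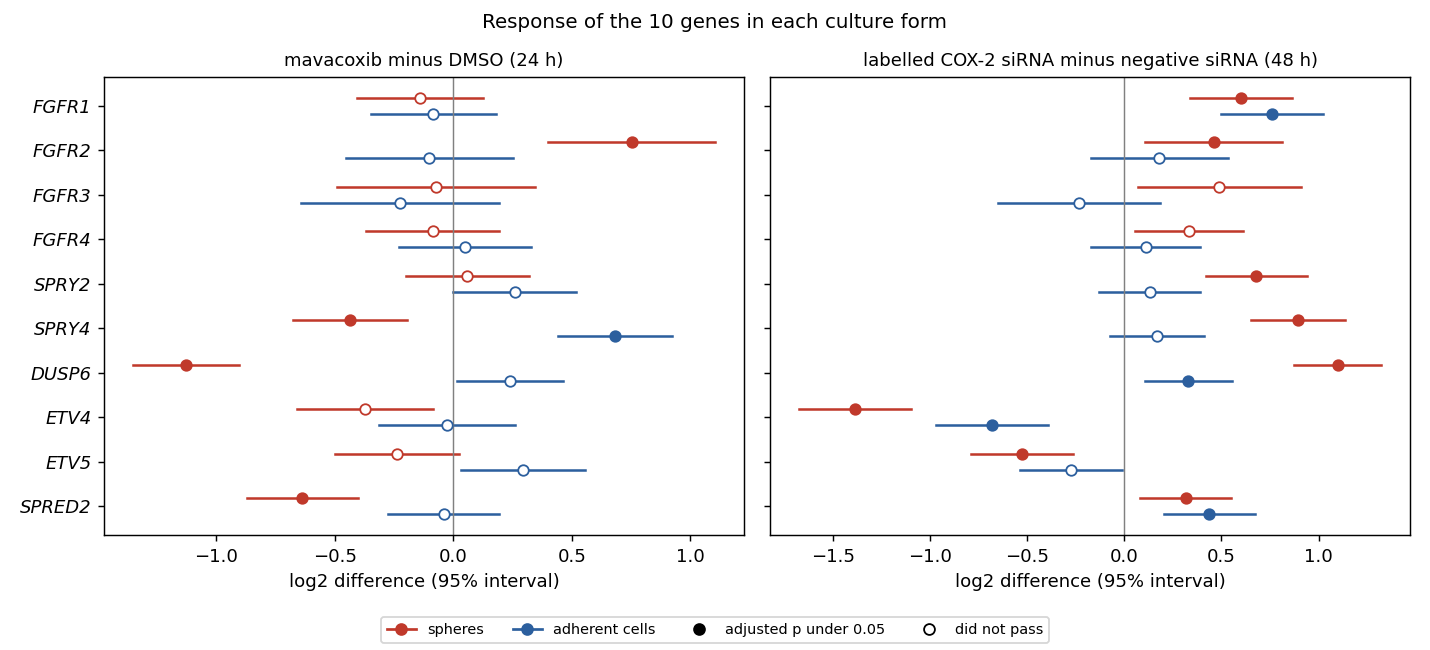
Log2 difference of each gene with mavacoxib minus DMSO (left) and labelled COX-2 siRNA minus negative siRNA (right), in spheres (red) and adherent cells (blue); bars are 95% intervals of the fit and filled points passed at an adjusted p under 0.05. DUSP6 in spheres stands at -1.13 with mavacoxib and 1.10 with labelled COX-2 siRNA, and ETV4 reaches -1.39 on the right.

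Spheres and adherent cells differed in most of the set, and the inhibitors went both ways. With DMSO, FGFR1, SPRY2 and SPRY4 were higher in spheres and DUSP6, ETV4, ETV5 and SPRED2 lower, 7 of 10 genes, where 46.1% of all genes passed (22.8% higher and 23.3% lower). With negative siRNA, FGFR1, FGFR2 and SPRY2 were higher in spheres and FGFR3, SPRY4, DUSP6, ETV4, ETV5 and SPRED2 lower, 9 of 10 genes, where 42.7% of all genes passed (20.5% higher and 22.1% lower). The median difference over the set was -0.25 with DMSO and -0.51 with negative siRNA, against -0.03 and -0.06 over all genes. Of all passing genes 49.5% with DMSO and 48.1% with negative siRNA were higher in spheres, or 33.6% and 34.1% with arrays shifted to one median. That shift moved the median of all genes to -0.22 with DMSO and -0.20 with negative siRNA, and FGFR4 then passed as lower in spheres in both controls, at -0.47 and -0.41.

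SPRY2 had the largest difference of the set. It read 8.73, 8.74 and 8.41 in spheres with DMSO, against 6.24, 6.10 and 6.35 in adherent cells (2.40 ± 0.12, 5.27-fold, adjusted p = 1.89e-13). With negative siRNA it read 8.64, 8.45 and 8.22 in spheres, against 6.51, 6.33 and 6.52 in adherent cells (1.98 ± 0.12, adjusted p = 6.61e-12). Every sphere array lay far above every adherent array in both controls. SPRY4 depended on the control, with a difference of 0.66 ± 0.12 with DMSO (adjusted p = 5.40e-05) and -0.35 ± 0.12 with negative siRNA (adjusted p = 0.0169). The call with negative siRNA was lost without any 1 of 3 of its 6 arrays (adjusted p = 0.0522 to 0.0749).

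ETV4 read 7.33, 7.03 and 7.14 in spheres with DMSO, against 8.92, 8.92 and 9.01 in adherent cells (-1.78 ± 0.14, adjusted p = 2.28e-10). With negative siRNA its difference was -1.16 ± 0.14 (adjusted p = 2.98e-07). ETV5 was lower in spheres by nearly the same amount in both controls, -0.89 ± 0.13 with DMSO (adjusted p = 3.30e-06) and -0.98 ± 0.13 with negative siRNA (adjusted p = 1.01e-06). SPRED2 was also lower, at -0.82 ± 0.11 with DMSO (adjusted p = 1.96e-06) and -0.67 ± 0.11 with negative siRNA (adjusted p = 3.58e-05). DUSP6 was slightly lower in spheres with DMSO (-0.37 ± 0.11, adjusted p = 0.00624) and further below with negative siRNA (-1.13 ± 0.11, adjusted p = 8.66e-09).

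Among the receptors FGFR1 was higher in spheres in both controls, by 0.52 ± 0.13 with DMSO (adjusted p = 0.00153) and 0.75 ± 0.13 with negative siRNA (adjusted p = 4.05e-05). With arrays shifted to one median the DMSO difference was 0.34 (adjusted p = 0.0378). FGFR3 read 5.54, 5.47 and 5.38 in spheres with DMSO, against 5.76, 5.69 and 5.58 in adherent cells, which did not pass (-0.21, 95% interval -0.63 to 0.21). With negative siRNA FGFR3 read 3.40, 3.74 and 4.47 in spheres, against 5.29, 5.21 and 5.82 in adherent cells, and was lower by at least 1.57 ± 0.20 if the sphere signal is background (log2 difference -1.57, adjusted p = 9.07e-07). FGFR2 was higher in spheres with negative siRNA (0.60 ± 0.17, adjusted p = 0.00624) and not separated with DMSO (-0.15, adjusted p = 0.531). FGFR4 missed the threshold in both controls, at -0.29 and -0.27 (adjusted p = 0.0891 and 0.115).

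**Figure D3:**
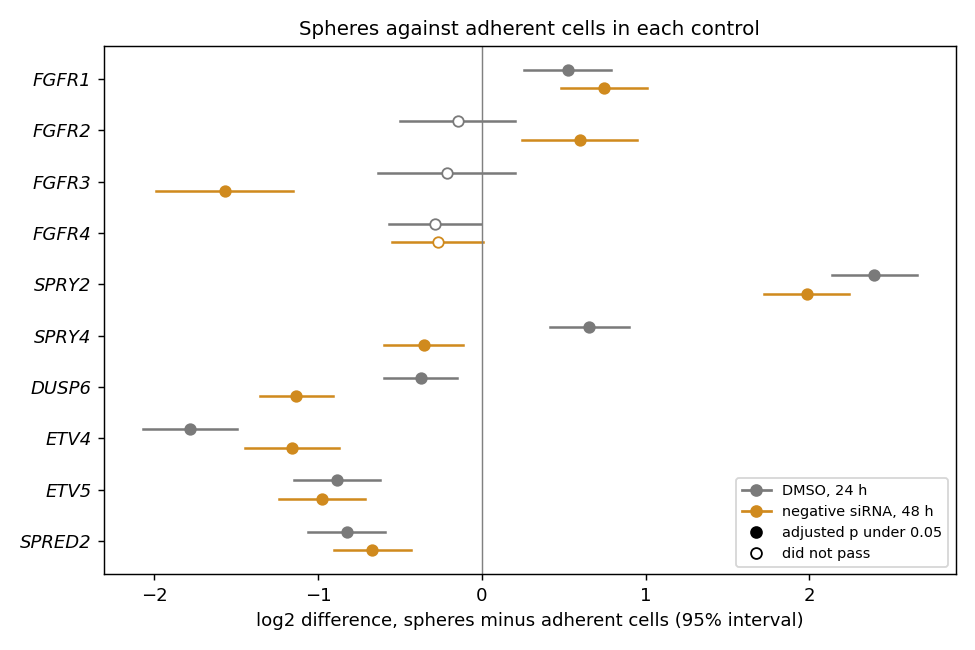
Log2 difference of the 10 genes between spheres and adherent cells with DMSO (grey) and with negative siRNA (orange), with 95% intervals of the fit; filled points passed at an adjusted p under 0.05. SPRY2 lies near 2.40 and 1.98, ETV4, ETV5 and SPRED2 are below 0 in both controls, and SPRY4 lies on opposite sides of 0.

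The controls themselves differed for some genes of the set, in shares near those of all genes in both culture forms. Negative siRNA and DMSO differ in agent, transfection, hours and, as the labels describe it, plating before treatment, which cannot be told apart. In spheres with negative siRNA ETV4 was higher and FGFR3, SPRY4 and DUSP6 were lower than in spheres with DMSO, 4 of 10 genes, where 35.3% of all genes passed (19.0% higher and 16.4% lower). The differences were 0.95 ± 0.14 for ETV4 (adjusted p = 9.66e-06), -1.59 ± 0.20 for FGFR3 (1.44e-06, a lower bound on its size if the 3.87 with negative siRNA is background), -0.64 ± 0.12 for SPRY4 (0.000128) and -0.86 ± 0.11 for DUSP6 (1.20e-06). In adherent cells SPRY4 was higher with negative siRNA than with DMSO (0.37 ± 0.12, adjusted p = 0.0370), the 1 call among 10 genes, where 13.9% of all genes passed (8.74% higher and 5.11% lower). That call was lost without any 1 of its 6 arrays (adjusted p = 0.0546 to 0.140). It was also lost after quantile normalization (0.0626) and with trend and robust variance (0.0594). Of all genes passing between the adherent controls 63.1% were higher, or 52.4% after quantile normalization.

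The remaining members did not pass between the controls. In spheres FGFR2 differed by 0.37 ± 0.17 (adjusted p = 0.0954), and the others ran from -0.19 for SPRY2 to 0.03 for SPRED2. In adherent cells the differences were -0.30 ± 0.13 for FGFR1 (adjusted p = 0.127), -0.37 ± 0.17 for FGFR2 (0.161) and 0.32 ± 0.14 for ETV4 (0.130), and the others ran from -0.24 for FGFR3 to 0.22 for SPRY2. FGFR1 passed there after quantile normalization (0.0346) and FGFR2 in a fit to the compared groups alone (0.0419).

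The gap between the controls differed by culture form for 5 of 10 genes (FGFR2, FGFR3, SPRY4, DUSP6 and ETV4), where 17.1% of all genes passed (7.77% higher and 9.29% lower). SPRY2 differed by -0.41 ± 0.18 (adjusted p = 0.122) and passed after quantile normalization (0.0409) and without sphere DMSO array 3 (0.0408), and the other members that did not pass ran from -0.09 for ETV5 to 0.22 for FGFR1. For DUSP6, SPRY4 and ETV4 the sphere responses to labelled COX-2 siRNA stand on a control that itself lay away from DMSO. DUSP6 averaged 10.60 ± 0.10 in spheres with labelled COX-2 siRNA, 9.50 ± 0.09 with negative siRNA and 10.36 ± 0.08 with DMSO (SD, n = 3 each). SPRY4 averaged 7.07 ± 0.15 with labelled COX-2 siRNA, 6.18 ± 0.12 with negative siRNA and 6.82 ± 0.10 with DMSO. ETV4 averaged 6.73 ± 0.29 with labelled COX-2 siRNA, 8.11 ± 0.15 with negative siRNA and 7.17 ± 0.15 with DMSO. For these 3 genes the negative siRNA mean was the one that lay apart. The other members called there, FGFR1, FGFR2, SPRY2, SPRED2 and ETV5, did not pass between the sphere controls. FGFR1 averaged 10.67 with labelled COX-2 siRNA, 10.07 with negative siRNA and 10.15 with DMSO. For SPRY2 these means were 9.12, 8.44 and 8.63. EGR1, an immediate early gene of the ERK pathway, moved between the same controls: it read 11.01, 11 and 10.85 in spheres with negative siRNA, against 7.37, 6.97 and 7.80 with DMSO (3.57 ± 0.17, adjusted p = 9.02e-13). Sphere arrays with labelled COX-2 siRNA read 10.74, 10.41 and 10.25, so for EGR1 the DMSO group was the one that lay apart. In adherent cells EGR1 differed between the controls by 0.14, and the sphere minus adherent difference was 3.43 ± 0.25 (adjusted p = 2.06e-09). Its part in the results for the set was not tested.

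The other genes of the pathway were read from 4 lists. FGF ligands had 21 of 22 genes measured, heparan sulfate and other co-receptors and binding proteins 15 of 17, the chain from receptor to ERK 16 of 20, and further feedback and target genes 19 of 22. The ligand list goes by gene name and includes FGF11, FGF12, FGF13 and FGF14, which are intracellular factors and not classed as receptor ligands. The feedback and target list also includes RASA1, NF1, CBL and CIC, so its counts are not counts of ERK-induced transcripts alone. With mavacoxib in spheres, 3 ligands rose and 0 fell, 1 co-receptor gene rose and 4 fell, 1 gene of the chain rose and 2 fell, and 2 feedback or target genes rose and 7 fell, where 11.1% of all genes were higher and 10.3% lower. In adherent cells the counts with mavacoxib were 2 ligands higher and 1 lower, 0 and 1 co-receptor genes, 0 and 0 genes of the chain, and 2 and 0 feedback or target genes, where 2.61% of all genes were higher and 1.50% lower. List medians, in that order, were 0.00, -0.14, 0.07 and -0.06 in spheres and 0.06, 0.01, 0.12 and 0.15 in adherent cells, against -0.01 and 0.04 over all genes.

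Of 21 measured ligand genes, 18 did not pass in spheres and 18 did not pass in adherent cells. FGF21, an endocrine FGF induced by metabolic and endoplasmic reticulum stress, read 10.05, 9.61 and 10.05 in spheres with mavacoxib, against 7.86, 8.12 and 7.84 with DMSO (1.96 ± 0.18, adjusted p = 7.18e-08). It also rose in adherent cells, by 1.06 ± 0.18 (adjusted p = 0.00116). FGF5, known as a brake on hair growth, rose by 0.82 ± 0.16 in spheres (adjusted p = 0.000801) and by 1.34 ± 0.16 in adherent cells (adjusted p = 2.64e-05), where its DMSO mean of 4.21 makes the rise a lower bound if that is background. FGF19, an endocrine FGF that acts mainly through FGFR4, rose in spheres by 1.45 ± 0.28 (adjusted p = 0.000652) above a DMSO mean of 4.35, with the same limit. FGF1, the ligand that fell in adherent cells (-0.58 ± 0.16, adjusted p = 0.0448), had both means under 4.82 and lost its call without any 1 of 4 of its 6 arrays (adjusted p = 0.0933 to 0.255).

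Feedback genes outside the set moved in both directions with mavacoxib in spheres. SPRY1, another Sprouty gene, read 9.0, 9.04 and 8.98 with mavacoxib, against 10.11, 10.14 and 9.76 with DMSO, and fell by 1.00 ± 0.13 (adjusted p = 7.90e-06). SPRED1, the relative of SPRED2, fell by 0.78 ± 0.12 (adjusted p = 3.49e-05). DUSP5, a nuclear ERK phosphatase, went the other way: it read 9.23, 9.07 and 8.73 with mavacoxib, against 7.58, 7.59 and 7.15 with DMSO, and rose by 1.57 ± 0.15 (adjusted p = 1.52e-07). KSR1, a scaffold for RAF and MEK, read 5.58, 5.66 and 5.85 with mavacoxib, against 6.79, 7.25 and 6.65 with DMSO (-1.20 ± 0.14, adjusted p = 2.47e-06). The responses of SPRY1, DUSP5 and KSR1 differed between spheres and adherent cells, by -1.25 ± 0.18, 1.31 ± 0.22 and -1.11 ± 0.20 (adjusted p = 9.06e-05, 0.000317 and 0.000837).

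With labelled COX-2 siRNA in spheres, 4 ligands rose and 2 fell, 5 co-receptor genes rose and 3 fell, 3 genes of the chain rose and 4 fell, and 7 feedback or target genes rose and 3 fell, where 15.8% of all genes were higher and 23.3% lower. In adherent cells the counts were 2 and 0, 5 and 1, 1 and 1, and 4 and 3, where 6.42% were higher and 8.59% lower. The list medians in spheres were 0.03, 0.17, 0.02 and 0.29, against -0.04 over all genes. FGF2, the basic FGF that the sphere medium also supplies as protein, had the largest difference: it read 10.04, 10.07 and 10.24 in spheres with labelled COX-2 siRNA, against 4.60, 4.92 and 4.87 with negative siRNA. Its log2 difference was 5.32 ± 0.13 (adjusted p = 1.84e-18), a lower bound if the control signal is background. In adherent cells FGF2 read 9.11, 9.04 and 9.13 with labelled COX-2 siRNA, against 7.01, 6.99 and 7.25 with negative siRNA (2.01 ± 0.13, adjusted p = 1.32e-10). All arrays were separated, and the responses differed by 3.31 ± 0.18 (adjusted p = 3.97e-11).

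Several other pathway genes rose or fell on the same arrays. SPRY1 read 10.32, 10.12 and 10.12 in spheres with labelled COX-2 siRNA, against 8.44, 8.45 and 8.89 with negative siRNA (1.59 ± 0.13, adjusted p = 2.32e-09). SULF1, a sulfatase that trims heparan sulfate at the cell surface, rose there by 1.98 ± 0.14 (adjusted p = 2.80e-10), and FLRT2, a leucine-rich repeat membrane protein, by 2.53 ± 0.18 (adjusted p = 1.93e-10). RASA1, a GTPase activating protein that turns RAS off, rose by 1.67 ± 0.15 (adjusted p = 6.99e-09). MAP2K2 and ARAF, a MEK and a RAF kinase of the chain, fell by 1.09 ± 0.11 (adjusted p = 4.23e-08) and 0.96 ± 0.12 (7.06e-07).

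Between culture forms with DMSO, 6 ligands were higher in spheres and 1 lower, 6 co-receptor genes higher and 1 lower, 2 genes of the chain higher and 7 lower, and 6 feedback or target genes higher and 7 lower, where 22.8% of all genes were higher and 23.3% lower. With negative siRNA the counts were 4 and 2, 5 and 5, 2 and 7, and 4 and 8, where 20.5% were higher and 22.1% lower. The list medians with DMSO were 0.04, 0.17, -0.34 and 0.14, against -0.03 over all genes. SULF1 read 9.65, 9.86 and 9.63 in spheres with DMSO, against 3.51, 3.42 and 3.41 in adherent cells (6.27 ± 0.14, adjusted p = 1.03e-19), and its relative SULF2 differed by 5.79 ± 0.19 (adjusted p = 4.16e-17). Both are lower bounds if the adherent signal is background. FGF5 and FGF1, which binds all FGF receptors, were higher in spheres by 4.03 ± 0.16 (adjusted p = 1.84e-15) and 3.33 ± 0.16 (5.98e-14), with adherent means of 4.21 and 3.51 under the same limit. FGF2 transcript was lower in spheres, at -1.54 ± 0.13 (adjusted p = 1.00e-09). With negative siRNA the differences were 4.87 ± 0.14 for SULF1, 3.61 ± 0.19 for SULF2, 4.77 ± 0.16 for FGF5, 4.70 ± 0.16 for FGF1 and -2.29 ± 0.13 for FGF2, and all 5 passed.

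The adaptor and the membrane inhibitor of FGF signalling were both lower in spheres. FRS2 read 9.40, 9.68 and 9.38 in spheres with DMSO, against 11.66, 11.73 and 11.66 in adherent cells (-2.20 ± 0.12, adjusted p = 3.49e-13). IL17RD, also called SEF, read 6.67, 6.76 and 6.37 in spheres, against 9.31, 9.18 and 9.14 in adherent cells (-2.61 ± 0.14, adjusted p = 2.51e-13). With negative siRNA the differences were -1.90 ± 0.12 for FRS2 (adjusted p = 5.72e-12) and -2.27 ± 0.14 for IL17RD (3.51e-12). KSR1 was higher in spheres with DMSO (2.19 ± 0.14, adjusted p = 1.10e-11, over an adherent mean of 4.71 with the same limit), as was SPRY1 (1.95 ± 0.13, adjusted p = 1.63e-11), while DUSP5 was lower (-2.60 ± 0.15, adjusted p = 1.79e-12). With negative siRNA KSR1 differed by 1.67 ± 0.14 (adjusted p = 1.59e-09) and DUSP5 by -2.27 ± 0.15 (2.28e-11). SPRY1 differed by 0.66 ± 0.13 (adjusted p = 0.000204), and its gap between the controls differed by culture form (-1.28 ± 0.18, adjusted p = 2.22e-05).

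**Figure D4:**
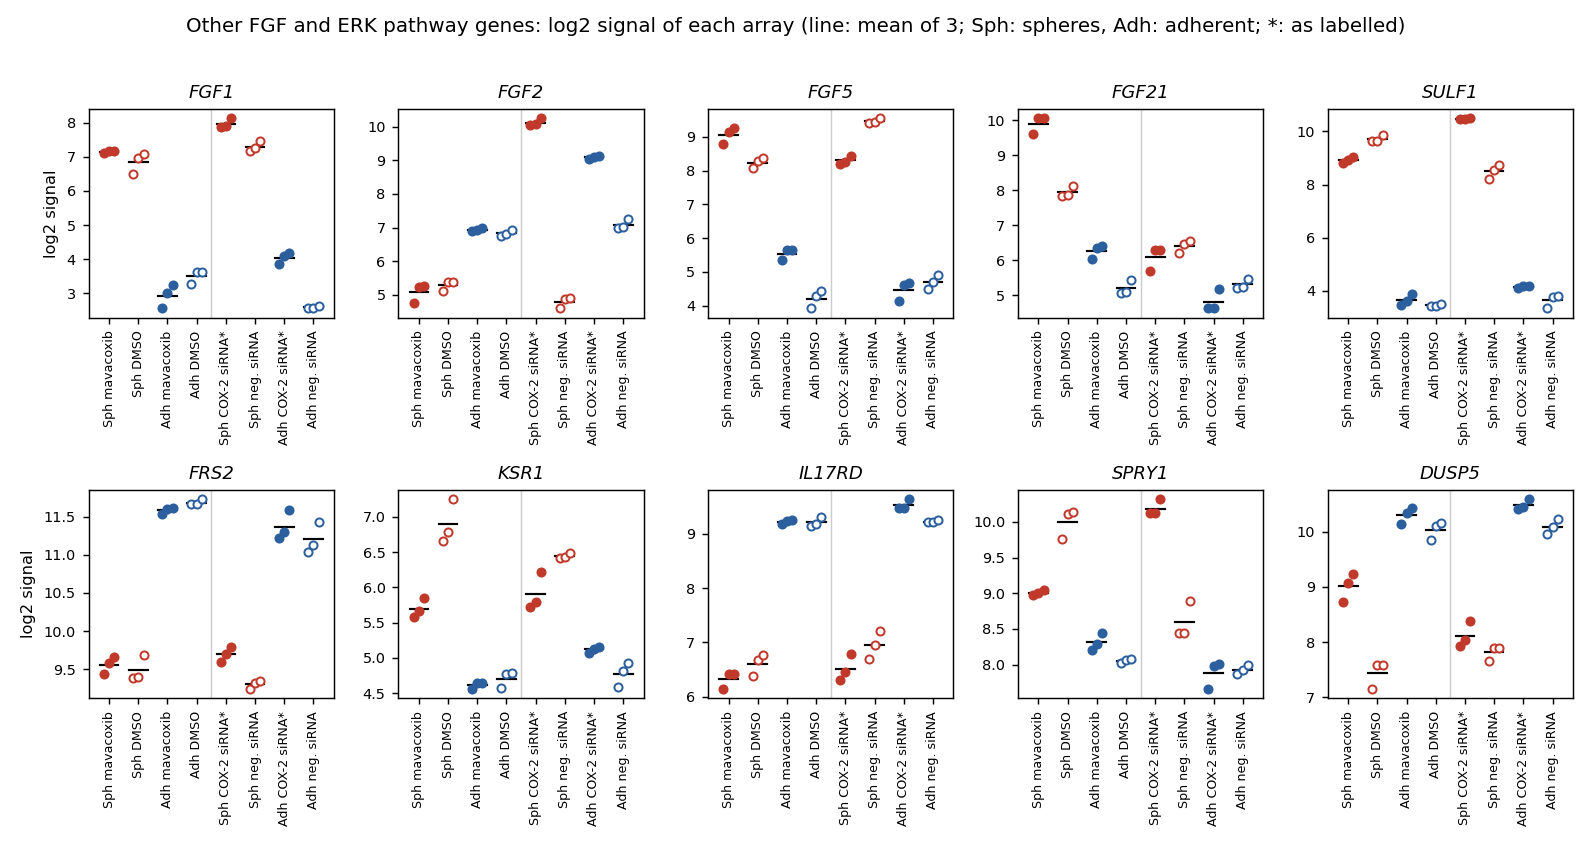
Log2 signal on every array of 10 further FGF and ERK pathway genes, drawn as in the plot of the 10 genes, each with its own vertical scale. FGF2 is near 10 on sphere arrays labelled COX-2 siRNA, against under 5 with negative siRNA, and SULF1, FRS2 and IL17RD separate spheres from adherent cells in all groups.

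The genes whose signal ran most like each member were sought among all genes by Pearson correlation over the 24 arrays. These arrays share 8 groups, so a high r mostly describes the order of the groups, and it is given without a test. SPRY2 was closest to SULF1 (r = 0.99), HR (0.987) and PAX2 (0.986). DUSP6 was closest to TGFBR2 (0.95), ZFC3H1 (0.949) and ATXN7L3 (0.947). ETV4 ran with RNASEH2C (0.98), MYB (0.979) and OVOL2 (0.974), and ETV5 with SH3YL1 (0.972), THAP2 (0.972) and EIF2S3 (0.971). For SPRED2 they were ELF4 (0.954), PARP4 (0.952) and PHF8 (0.947). The receptors had lower values, with MPRIP for FGFR1 (0.931), TMPRSS13 for FGFR3 (0.923) and TESMIN for FGFR2 (0.873) in the first place. Group means of FGFR4 and SPRY4 spanned less than 1 log2 unit, and no likeness is given for them.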

How the data were processed

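The deposited table held log2 signals per array row, made by the authors with Affymetrix Expression Console 1.1 per the submitters' processing notes. How probes were summarised and arrays normalized is not stated in the sources at hand, and the log base was taken from the range of the values, 0.60 to 13.51. Of 27766 rows, 16878 carried 1 gene symbol in the platform annotation, 289 several and 10599 none; the brightest row per symbol left 16295 genes with no filter on signal. A model of 8 group means over 24 arrays was fitted in limma (version 3.58.1, under R 4.3.3) through lmFit, contrasts.fit and eBayes, with 16 residual and 5.54 prior degrees of freedom, for 11 comparisons. Intervals are 95% and come from the fit.

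The members and lists were chosen with earlier results of these data known. Results for all 10 members were computed in every comparison and are given singly or as a range, up to 4 passing genes per pathway list and comparison with the smallest adjusted p could be named, and for members whose group means span at least 1 log2 unit the 3 genes most like them, or the first for receptors. SPRY1 with negative siRNA was added after its values were seen. Alternatives were quantile normalization, arrays shifted to one median, dim genes left out, the mean of a gene's rows, a fit to the compared groups alone, a trended robust variance, replicate numbers as a block, and leaving out each array. On simulated data for mavacoxib in spheres (16295 genes, 67 changed per size) the procedure recovered 23.9% of changes of 0.5, 85.1% of 1 and 100% of 2. For the difference between mavacoxib responses it recovered 7.46%, 58.2% and 100%. The simulation gave 151 and 115 calls in these comparisons, against 3491 and 1680 genes passing in the data. With so few changed genes the adjusted threshold is stricter, so these shares do not measure the recovery in the data.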

Additional observations from a re-analysis of the deposited data

Results flagged for a closer look

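Culture form changed the response of 4 genes of the set to mavacoxib, 4 to labelled COX-2 siRNA and 5 to the exchange of DMSO for negative siRNA, each by the test of the difference between spheres and adherent cells in the limma fit. All genes passing these tests made up 10.3%, 15.3% and 17.1% of 16295.

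With mavacoxib the sphere response minus the adherent response was 0.85 for FGFR2, -1.12 for SPRY4, -1.37 for DUSP6 and -0.60 for SPRED2. The FGFR2 and SPRED2 values lost their calls without single arrays or in a fit to the compared groups alone (adjusted p = 0.0577 for both). With labelled COX-2 siRNA it was 0.55 for SPRY2, 0.72 for SPRY4, 0.77 for DUSP6 and -0.71 for ETV4. The SPRY2 and ETV4 calls there were lost without single arrays or in a fit to the compared groups alone. Of all genes passing there 44.2% were higher, or 26.6% with arrays shifted to one median. Between the controls it was 0.74 for FGFR2 (adjusted p = 0.0353), -1.36 for FGFR3 (0.00154), -1.01 for SPRY4 (0.000105), -0.76 for DUSP6 (0.000966) and 0.62 for ETV4 (0.0303). The FGFR2 call was lost without any 1 of 8 of 12 arrays (adjusted p = 0.0524 to 0.102) and the ETV4 call without any 1 of 5 (0.0504 to 0.0946). SPRY4 and DUSP6 appear in all 3 lists, and the comparisons share their control arrays.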

How the results depend on the processing

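Of 110 values of the set over 11 comparisons, 51 passed, and 38 of them kept their call under every alternative run. The other 13 lost it under at least 1 alternative, each named above, and none of the 51 changed direction. Of 151 passing values of pathway genes open to naming, 130 kept their call throughout. Genes passing with mavacoxib in adherent cells numbered 671, against 1034 with dim genes left out and 344 to 500 without single arrays. With mavacoxib in spheres 3491 passed, against 1904 in a fit to those 2 groups alone. Genes passing without single arrays were 1566 to 1985 with labelled COX-2 siRNA in adherent cells and 1427 to 1835 between adherent controls. Members passing were 2 in a fit to the compared groups alone for the difference in mavacoxib response, the difference in labelled siRNA response and the adherent controls, and 0 for the last with trend and robust variance. Without single arrays members passing were 2 to 4 for labelled COX-2 siRNA in adherent cells and for both differences in response, 0 for the adherent controls and 3 to 6 for the difference between controls. PTGS2 in adherent cells with labelled COX-2 siRNA passed with dim genes left out (adjusted p = 0.0486) and with trend and robust variance (0.0321).

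Some values that did not pass changed sign. SPRED2 between sphere controls was 0.03, against -0.046 after quantile normalization and -0.075 to 0.09 without single arrays. Without single arrays the mavacoxib differences in adherent cells ran from -0.0017 to 0.11 for FGFR4, -0.12 to 0.043 for SPRED2 and -0.05 to 0.005 for ETV4, and in spheres from -0.048 to 0.12 for SPRY2 and -0.21 to 0.0017 for FGFR3. FGFR4 with labelled COX-2 siRNA in adherent cells ran from -0.038 to 0.24, and FGFR1 between sphere controls from -0.26 to 0.045. The differences in response ran from -0.24 to 0.065 for FGFR1 with mavacoxib and from -0.057 to 0.10 for FGFR4 between controls. The cause was not tested.

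Of 18 pairs of arrays with equal replicate numbers, 6 correlated above 0.1 after removal of group means (range -0.171 to 0.266). Pairs with unequal numbers were not compared, so these values cannot show whether the numbers pair the arrays. With replicate number as a block, 669 and 3485 genes passed with mavacoxib in adherent cells and spheres and 2418 and 6333 with labelled COX-2 siRNA, and the member counts of all 11 comparisons were unchanged.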
